A study of Mus musculus with 21 samples.

Results

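The insulin-like growth factor (IGF) axis was followed through 10 genes, found by their symbols among the 24391 gene symbols of the count tables: the ligands Igf1 and Igf2, the receptors Igf1r and Igf2r, and the secreted binding proteins Igfbp1 to Igfbp6. All 10 were present in each of 21 libraries. Each newborn C57BL/6 mouse (postnatal day 0) gave 1 library of brain, 1 of liver and 1 of skin RNA. The genotypes compared were 2 Jak1 KI mice and 5 wild-type (WT) mice. The KI mice were heterozygous for a missense change in the kinase Jak1, H595D, carried with the silent changes I596I and Y597Y, and were bred by crossing a mosaic founder male with WT females. Both KI mice therefore descend from 1 edited founder. RNA of mice that carry the silent changes alone was not analysed here, so the missense and silent changes cannot be told apart in these libraries. The paper reports that mice with only the silent changes looked normal and had the survival of WT mice. Sex and litter are not given in the sources used here.

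IGF-1 and IGF-2 are small secreted hormones that drive growth before and after birth. Both signal through the tyrosine kinase receptor IGF1R, whereas IGF2R (the cation-independent mannose 6-phosphate receptor) takes up IGF-2 and carries it to lysosomes. The binding proteins hold the ligands in plasma and tissue fluid and set how much reaches the receptor. Igf2 is imprinted and is expressed from the paternal allele in most fetal tissues, next to the maternally expressed noncoding RNA H19. Liver is the main source of circulating IGF-1 after weaning, under growth hormone, and hepatic Igfbp1 is well known to be induced by fasting, hypoxia and inflammatory cytokines and repressed by insulin.

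Between 26549326 and 38388133 reads per library were counted on genes (median 32240708). Jak1 itself was examined first: it had 156 and 162 CPM (gene counts scaled to library size with TMM factors) in KI brains against 90.8 to 151 in WT brains, 271 and 289 against 206 to 246 in liver, and 182 and 185 against 149 to 173 in skin. Neither the missense change nor the silent ones shows in gene counts, so these levels do not check the genotype labels. Tissue labels were checked on marker genes. The sum of 6 neuron markers was 7184 to 8507 CPM in WT brains and at most 112 in the other WT tissues, the sum of 7 hepatocyte markers was at least 228209 CPM in WT livers, and the sum of 6 keratinocyte markers was 1320 to 14660 CPM in WT skins. In KI 1 and KI 2 these sums were 7334 and 6554 CPM in brain, 231172 and 224777 in liver, and 11999.5 and 811 in skin. KI 2 lay below all WT libraries in each tissue. No marker of these lists was at 0 in its own tissue. One brain library, WT 5, stood apart from the rest: its root mean square log2 distance from the WT median was 0.958, against 0.343 to 0.461 for the other WT brains, and its choroid plexus marker sum was the highest of the brains. Brain results that turn on this library are given with and without it. Skin RNA had lower integrity values than liver RNA according to the study's methods. In bulk tissue, fewer cells of a type and less RNA per cell cannot be told apart.

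The first question was which newborn tissues supply each part of the axis. In WT mice liver was the richest source of Igf2, Igfbp1, Igfbp2 and Igfbp4, and skin of Igf1, both receptors, Igfbp3 and Igfbp6. Brain had the lowest mean level of Igf1, Igf2, Igf2r, Igfbp3, Igfbp4 and Igfbp6. Igfbp1 and Igfbp2 had theirs in skin, and Igf1r and Igfbp5 in liver. With edgeR's quasi-likelihood test and a Benjamini-Hochberg adjusted p under 0.1 as the threshold for a call, 8 members were higher and 1 was lower in liver than in brain, where 83.4% of all genes were called (40.2% higher and 43.3% lower). Skin had 7 members higher and 2 lower than brain (79.4% of all genes called, 40.3% higher and 39.1% lower), and liver had 4 higher and 6 lower than skin (72.3%, 32.5% higher and 39.8% lower). Most genes thus differed between these tissues, as the members did. The p-values measure the spread between these mice.

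**Figure D1:**
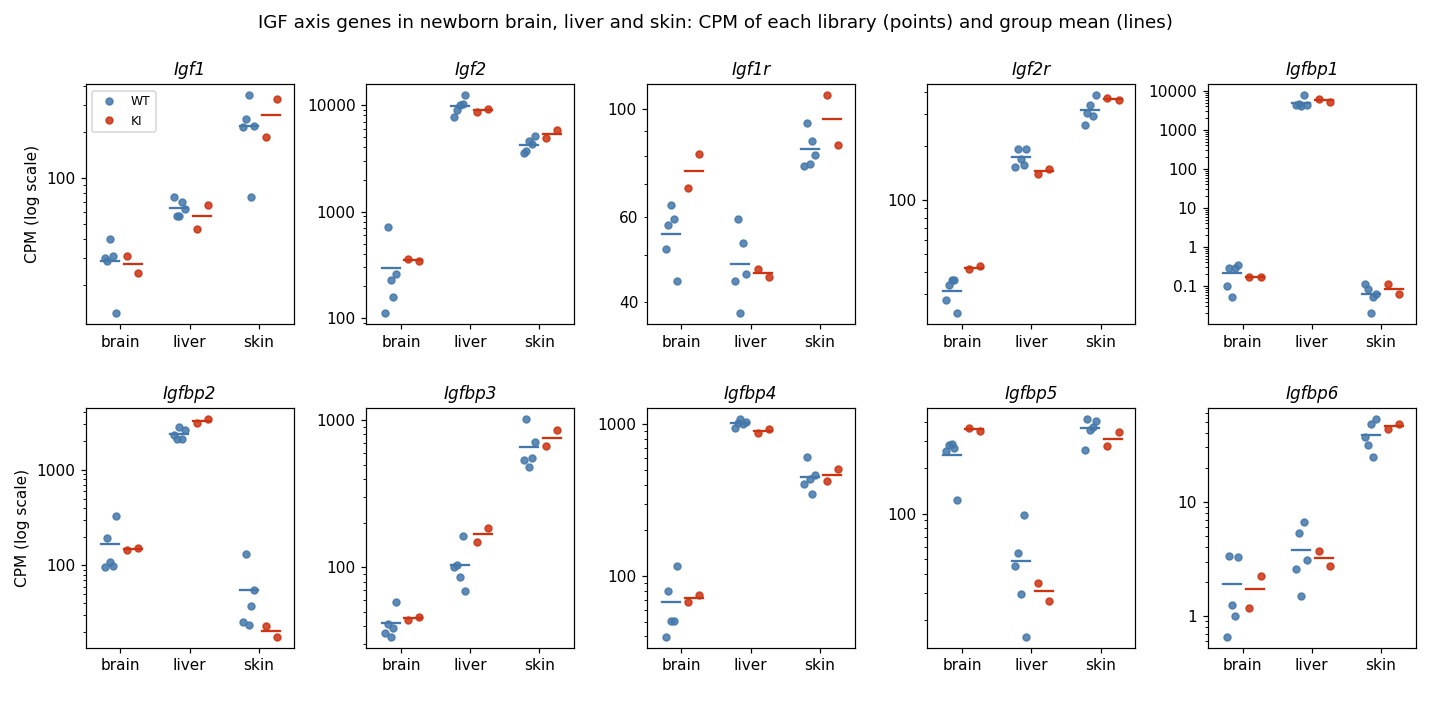
CPM on a log axis (ranges differ between panels) for the 10 members in every library, by tissue, with WT in blue and KI in red and a line at each group mean. Igfbp1 lies at or above 4058 CPM in every liver and at or below 0.349 CPM in every brain and skin (the skin library with 0 counts is drawn near the foot of its panel), and KI and WT points of most panels overlap.

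Igf2 was the dominant ligand in all tissues. Its levels were 7695, 8903, 10066, 10312 and 12314 CPM in the WT livers, 3526, 3669, 4292, 4584 and 5160 in the WT skins, and 111, 157, 226, 259 and 719 in the WT brains. The ranges of the 3 tissues did not overlap. Liver exceeded brain 33.6-fold (log2 difference 5.07, SE 0.463, edgeR adjusted p 3.99e-08) and skin 2.33-fold (1.22, SE 0.395, adjusted p 0.0123). Without mouse WT 2, which had the highest brain level, the log2 difference from brain was 5.75 for liver and 4.54 for skin (3.85 with all mice). On a per-length scale (RPKM, the CPM divided by exon length in kilobases), Igf2 made up 92.6% ± 4.74 (SD, n = 5) of the summed RPKM of the 2 ligands in brain, 99.6% ± 0.101 in liver and 97.2% ± 1.21 in skin. These shares depend on the exon length taken for Igf1, which is 9921 bases over all annotated exons and 2292 bases for the longest coding transcript. With the latter the Igf2 share was 78.3% ± 12.5 in brain, 98.6% ± 0.367 in liver and 90.4% ± 3.96 in skin.

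Igf1, the ligand that growth hormone controls in later life, had the opposite order between liver and skin. Its WT levels were 74.9 to 346 CPM in skin, 56.8 to 75.4 in liver and 13.1 to 39.8 in brain. Skin exceeded liver 3.40-fold (log2 difference of liver against skin -1.77, SE 0.321, edgeR adjusted p 0.000145), with the lowest skin just below the highest liver, and liver exceeded brain 2.25-fold (1.17, SE 0.317, adjusted p 0.00307). Newborn liver was therefore not the tissue with the most Igf1 transcript among these 3.

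The comparisons with liver depend on how libraries are scaled. With the total of counted reads in place of TMM, the median log2 difference of all genes moved from -0.06 to -0.85 for liver against brain and from -0.10 to -0.81 for liver against skin, and the share of calls that were higher in liver fell from 48.1% to 30.7% and from 45.0% to 20.6%. Under that scaling Igf1 (log2 difference 0.37, adjusted p 0.291) and Igfbp6 (0.24, 0.626) no longer passed for liver against brain, nor did Igf2 (0.51, 0.220) and Igfbp4 (0.45, 0.10) for liver against skin. Relative to those medians, each of these 4 differences stayed above that of the median gene. Directions of the members did not turn.

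A sum of connective tissue marker transcripts in the brain samples moved with Igf2. In order from the lowest, brain WT 1, WT 4, WT 3, WT 5 and WT 2 had 111, 157, 226, 259 and 719 CPM of Igf2, and the summed CPM of 7 fibroblast and meninges markers (Col1a1, Col1a2, Col3a1, Dcn, Lum, Ogn and Slc6a13) was 93.9, 119, 227, 241 and 758 in the same order. The KI brains, with 357 and 341 CPM of Igf2, had sums of 343 and 359. All 7 markers were detected in the brains. Over the 7 brains the order by Igf2 and the order by the marker sum were the same except that the KI brains changed places. The order by Igfbp2 shared only 3 of 7 places with that of the same sum. H19 gave the same order as Igf2, from 58.9 CPM in WT 1 to 458 in WT 2. The part of connective tissue cells in the Igf2 level was not tested.

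**Figure D2:**
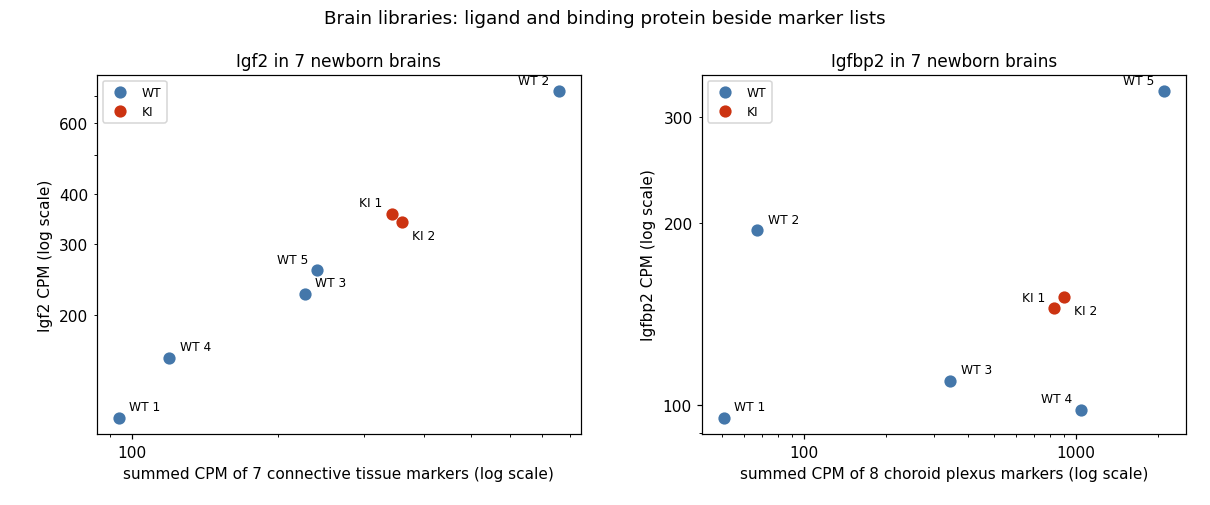
Left, Igf2 CPM against the summed CPM of 7 connective tissue markers in the 7 brain libraries; right, Igfbp2 CPM against the summed CPM of 8 choroid plexus markers (all axes log scale, WT blue, KI red, each point 1 mouse). Igf2 climbs with the connective tissue sum from WT 1 (111 and 93.9 CPM) to WT 2 (719 and 758 CPM), while the highest Igfbp2 is in WT 5 (330.4 CPM), which also has the highest choroid plexus sum (2097 CPM). Most of that sum may come from 1 of the 8 markers, Ttr.

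H19 lies 72624 bases from Igf2 on the same strand of chromosome 7 (NCBIM37, 149761434 to 149764048 for H19 and 149836673 to 149852721 for Igf2). The CPM ratio of H19 to Igf2 was 0.60 ± 0.10 (SD, n = 5) in WT brain, 2.59 ± 0.26 in liver and 2.27 ± 0.36 in skin. Brain values, 0.47 to 0.70, lay below all those of liver and skin. In KI mice the mean ratios were 0.57, 2.62 and 2.04. Among 15648 genes, H19 ranked 456 by likeness to the Igf2 profile (root mean square difference of centred log2 CPM 0.970 over 21 libraries). The genes with the most similar profile were Tgm2 (0.376), a transglutaminase, Deptor (0.403), an inhibitor of mTOR, and Lgals3bp (0.447). For Igf1 they were Ptger3 (0.408), Mbnl2 (0.454) and Clic5 (0.459). These 21 libraries share mice and tissues, and the ranking mainly orders genes by their 3 tissue levels.

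Of the 2 receptors, Igf1r differed less between tissues than Igf2r. Igf1r had 44.2 to 63.5 CPM in WT brain, 38.0 to 59.3 in liver and 76.3 to 93.6 in skin. Skin exceeded brain 1.5-fold (log2 difference 0.58, SE 0.126, edgeR adjusted p 0.000587) and liver 1.71-fold, and its range lay above both. Liver and brain overlapped and did not differ by the test (log2 difference -0.20, 95% interval -0.46 to 0.07, adjusted p 0.161), but liver was called lower with the size factors of DESeq2 (-0.26, adjusted p 0.0625), without mouse 2 (-0.27, 0.0937), without mouse 5 (-0.25, 0.0971) and with scaling by totals (-0.99, 5.51e-06). Igf2r, the clearing receptor for IGF-2, ranged from 23.5 to 36.0 CPM in brain, 152 to 193 in liver and 261 to 382 in skin, with no overlap. Skin exceeded brain 10.1-fold and liver 1.82-fold (log2 differences 3.33, SE 0.149, and, for liver against skin, -0.87, SE 0.137, adjusted p 2.00e-11 and 3.74e-05). The antisense gene Airn overlaps Igf2r, and the library kit does not keep strand. Airn had at most 453 counts in a library, and Igf2r had 741 to 1501 counts in the WT brains. The part of Airn reads in the Igf2r counts was not tested.

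Igfbp1 was in effect a liver transcript. The WT livers had 4058, 4324, 4478, 4673 and 7684 CPM. The WT brains had 2 to 12 counts and the WT skins 0 to 4 counts, with 0 in 1 of 5 skins, which allows up to 3 counts there. The lowest WT liver was 11644-fold above the highest brain or skin library on the CPM scale. Skin was called lower than brain (edgeR adjusted p 0.0160), but at these counts the ranges overlapped and no fold change is given. The most similar profiles over the 21 libraries were those of the plasma protein genes Pzp (root mean square difference 0.370), Plg (0.402) and Apoh (0.417), with means of at most 0.329 CPM outside liver.

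Igfbp1 and Igfbp3 are direct neighbours. In NCBIM37, Igfbp1 spans chromosome 11 from 7097785 to 7102549 on the plus strand and Igfbp3 from 7106089 to 7113926 on the minus strand, 3539 bases apart with no protein-coding gene between them. Their tissue patterns differed. Igfbp3, the main carrier of IGF in adult plasma, was lowest in brain (33.8 to 58.1 CPM), intermediate in liver (69.6 to 163) and highest in skin (482 to 1020.4), 6.31-fold above liver (log2 difference of liver against skin -2.66, SE 0.258, adjusted p 1.68e-07). To show how the starts of these neighbours differ, the 250 bases before each RefSeq start are printed 5′ to 3′ (GRCm38.p6, Igfbp1 chr11:7197537-7197786 on the plus strand, Igfbp3 chr11:7213924-7214173 on the minus strand). Capitals mark CAAAACA and CAAAATA on either strand, the letters of the insulin response element that FoxO factors are known to bind in Igfbp1.
Igfbp1: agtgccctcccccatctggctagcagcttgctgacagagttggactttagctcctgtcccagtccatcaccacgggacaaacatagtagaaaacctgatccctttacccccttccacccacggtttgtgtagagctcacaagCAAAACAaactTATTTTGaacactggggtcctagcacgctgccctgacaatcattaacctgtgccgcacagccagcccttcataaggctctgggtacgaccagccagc
Igfbp3: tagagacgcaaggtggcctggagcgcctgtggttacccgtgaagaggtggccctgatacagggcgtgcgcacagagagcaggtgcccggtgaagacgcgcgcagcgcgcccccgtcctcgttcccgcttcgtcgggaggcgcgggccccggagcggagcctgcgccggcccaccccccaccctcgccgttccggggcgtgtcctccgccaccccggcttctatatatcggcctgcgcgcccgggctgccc
The Igfbp1 window held CAAAACA beginning 108 bases before the start and CAAAATA, read on the other strand as TATTTTG, 97 bases before it, with 4 bases between them and no overlap. Among 32851 RefSeq windows of the same length, 5.561% held CAAAACA, 3.954% held CAAAATA and 0.3805% held both. All 10 members had a window, 14 in all, and only that of Igfbp1 held either motif. The Igfbp1 window had 5 CpG dinucleotides and that of Igfbp3 had 32, against a median of 6 over all windows. A match is a description of the letters and not of binding.

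Igfbp2 and Igfbp5 form the second neighbouring pair, on chromosome 1 (NCBIM37, 72871077 to 72899048 on the plus strand and 72904506 to 72921458 on the minus strand), 5457 bases apart and facing each other. Igfbp2, abundant in fetal serum, had 2092, 2120.4, 2322, 2592 and 2806 CPM in WT liver, 95.3, 98.2, 110, 194 and 330.4 in WT brain and 23.8, 25.6, 37.4, 54.7 and 132 in WT skin. Liver lay above both other tissues in all 5 mice, 14.4-fold over brain (log2 difference 3.85, SE 0.50, edgeR adjusted p 2.67e-06) and 43.7-fold over skin (5.45, SE 0.540, adjusted p 2.10e-07). Without mouse WT 2, whose skin was the highest, the log2 difference of liver and skin was 6.12. Brain and skin overlapped through the highest skin, although brain was called higher (3.03-fold, adjusted p 0.00504). The highest brain was WT 5, the library that stood apart, with a choroid plexus marker sum of 2097 CPM. The other WT brains had sums of 50.7 to 1041 CPM, yet WT 4, with 1041, had only 98.2 CPM of Igfbp2, and WT 2, with 67.3, had 194. Over the 7 brains the orders by Igfbp2 and by this sum shared 5 places. Most of the sum may come from 1 marker, Ttr. The part of choroid plexus in the Igfbp2 level was not tested.

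Igfbp5 was lowest in liver, where its neighbour Igfbp2 was highest. It had 262 to 417 CPM in WT skin and 123, 256, 270.2, 281 and 287 in WT brain, against 15.5, 29.9, 45.4, 55.3 and 97.2 in WT liver. Liver was 4.99-fold below brain (log2 difference -2.32, SE 0.377, edgeR adjusted p 3.12e-05) and 7.40-fold below skin (-2.89, SE 0.385, adjusted p 6.10e-06), with no overlap. Skin and brain did not pass the test (0.57, 95% interval -0.19 to 1.33, adjusted p 0.162), but skin was called higher when the mouse was a block (0.66, adjusted p 0.0854). Within liver the highest Igfbp5, in WT 4, came with the highest fibroblast marker sum (2268 CPM against 893 to 2198 in the other WT livers). WT 2, with a sum of 2198, had only 55.3 CPM of Igfbp5, and the lowest Igfbp5, in WT 5, did not come with the lowest sum. Over the 7 livers the orders by Igfbp5 and by the sum shared 4 places. The part of fibroblasts in the Igfbp5 level was not tested.

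Igfbp4, a binding protein cleaved by the protease PAPP-A, had 949 to 1086 CPM in liver, 349 to 613 in skin and 39.8 to 117 in brain. The 3 ranges did not overlap, and liver exceeded brain 15.1-fold and skin 2.26-fold (log2 differences 3.92, SE 0.275, and 1.18, SE 0.248). Igfbp6, which prefers IGF-2 as its ligand, was a skin transcript, with 24.9 to 53.3 CPM there, 1.49 to 6.64 in liver and 0.66 to 3.34 in brain. Skin exceeded brain 20.5-fold and liver 10.1-fold. The call of Igfbp6 as higher in liver than in brain (2.02-fold, log2 difference 1.02, adjusted p 0.0534) was lost without mouse 1 (0.91, adjusted p 0.111) and without mouse 4 (0.57, 0.298).

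On the per-length scale each tissue had its own leading binding proteins. In WT liver Igfbp1 took 64.3% ± 6.98 (SD, n = 5) of the summed RPKM of the 6 genes, Igfbp2 26.2% ± 5.90 and Igfbp4 8.66% ± 1.33. In WT skin Igfbp3 (39.6% ± 3.43) and Igfbp4 (36.7% ± 3.09) shared the lead, and Igfbp2 stood at 5.10% ± 2.65. In WT brain Igfbp2 (48.4% ± 10.9) led Igfbp5 (26.6% ± 11.7) and Igfbp4 (16% ± 1.7), and WT 5 had both the highest Igfbp2 share (66.1%) and the lowest Igfbp5 share (7.59%). The summed RPKM of the 6 genes was 4536 to 6670 in liver, 431 to 755 in skin and 123 to 271 in brain.

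**Figure D3:**
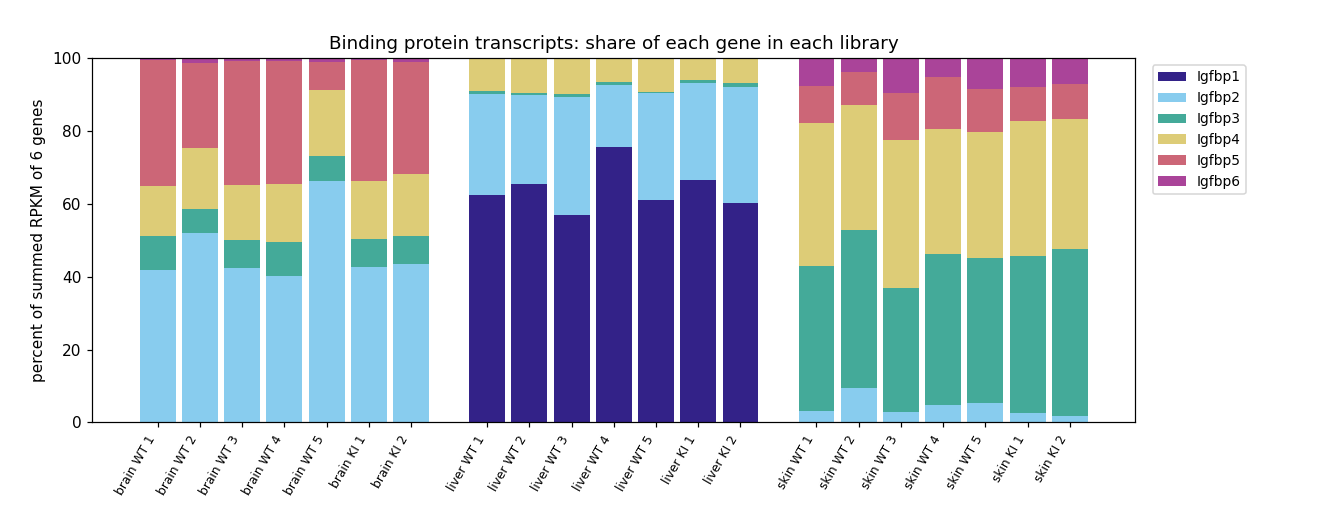
Share of each binding protein in the summed RPKM of the 6 genes (stacked bars, percent) for each of the 21 libraries. Igfbp1 takes 56.9% to 75.5% in the 5 WT livers, Igfbp3 and Igfbp4 lead in skin, and brain WT 5 departs from the other brains with 66.1% Igfbp2.

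Over all 10 members, ordered by mean RPKM, WT liver ran from Igfbp1 (3307 ± 979, SD, n = 5) through Igf2 (1795 ± 314), Igfbp2 (1292 ± 167) and Igfbp4 (431 ± 20.9) to Igfbp6 (3.44 ± 1.89). The ranges of Igf2 and Igfbp2 overlapped, and so did those of neighbours from Igf1r down, while Igfbp1 and Igf2 did not overlap. In WT skin Igf2 (773 ± 122) led and did not overlap Igfbp3 (211 ± 69.5), which overlapped Igfbp4 (191 ± 41.9). In WT brain Igfbp2 (89.7 ± 54.5), Igf2 (53.6 ± 44.5), Igfbp5 (40.6 ± 11.4) and Igfbp4 (28.6 ± 13.3) overlapped from 1 neighbour to the next. The place of Igf1 rests on its exon length: with the longest coding transcript its mean rose from 22.1 to 95.8 RPKM in skin, from place 8 to place 4. By the same change Igf2 in skin read 899 RPKM and kept its place.

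The wider pathway also differed between WT tissues. Of 15 genes of growth hormone and IGF signalling, 10 were higher and 5 lower in liver than in brain, against 40.2% and 43.3% of all genes. Among them the growth hormone receptor Ghr had 120 to 145 CPM in liver and 7.60 to 13.8 in brain (log2 difference 3.63, SE 0.219, edgeR adjusted p 2.36e-10). The adaptor Irs4 had no count in any WT liver and at least 11.3 CPM in every WT brain, which puts brain at least 80.7-fold higher when 3 counts per liver library are allowed. Of 11 genes that set the availability of IGF, 10 were tested. In skin against brain 9 of them were higher and 0 lower, against 40.3% and 39.1% of all genes. In liver against brain 5 were higher and 4 lower, against 40.2% and 43.3%. Pappa2, a protease of binding proteins, had 42.1 to 106 CPM in skin, 1.24 to 5.63 in brain and at most 0.980 in liver. Igfals, the subunit that completes the circulating IGF complex, had 28.0 to 37.6 CPM in liver, 1.91 to 17.3 in skin and at most 0.0959 in brain.

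Among the 5 genes of proteins that bind or regulate Igf2 RNA, 4 were higher in liver than in brain (40.2% of all genes). Igf2bp3 led with a log2 difference of 2.76 (SE 0.139). The RNA-binding protein gene Lin28b was lower in skin than in brain (log2 difference -5.99, SE 0.424), with 0.0563 to 0.492 CPM in skin. Of 10 imprinted growth genes, 8 were higher and 2 lower in skin than in brain, against 40.3% and 39.1% of all genes. Dlk1 was higher by a log2 difference of 5.63 (SE 0.263) and Mest by 4.24 (SE 0.355). Ndn had 859 to 1476 CPM in brain against 5.54 to 16.2 in liver. Of 11 genes related to the binding proteins, 8 were lower and none higher in liver than in skin, against 39.8% and 32.5% of all genes. In liver against brain 4 were higher and 4 lower, against 40.2% and 43.3%.

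The next question was whether the Jak1 change moved the axis within each tissue. No member passed the test in any tissue. None of 10 was called in brain, where 0% of all 16322 genes tested were called, none of 10 in liver (5.57% of all genes called) and none of 9 in skin (0.0247%), where Igfbp1 was too low to be tested. At an unadjusted p under 0.05 the counts were 0 in brain (10.6% of all genes), 2 in liver, Igfbp2 and Igfbp3 (17.9%), and 0 in skin (4.57%). With DESeq2 the same 2 liver members were called (9.95% of all genes) and none in brain (3.7%) or skin (0.662%). With 2 KI mice, 2-fold changes simulated on these libraries were recovered in 26% of genes in brain, 59% in liver and 29% in skin, so that moderate differences may go uncalled.

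**Figure D4:**
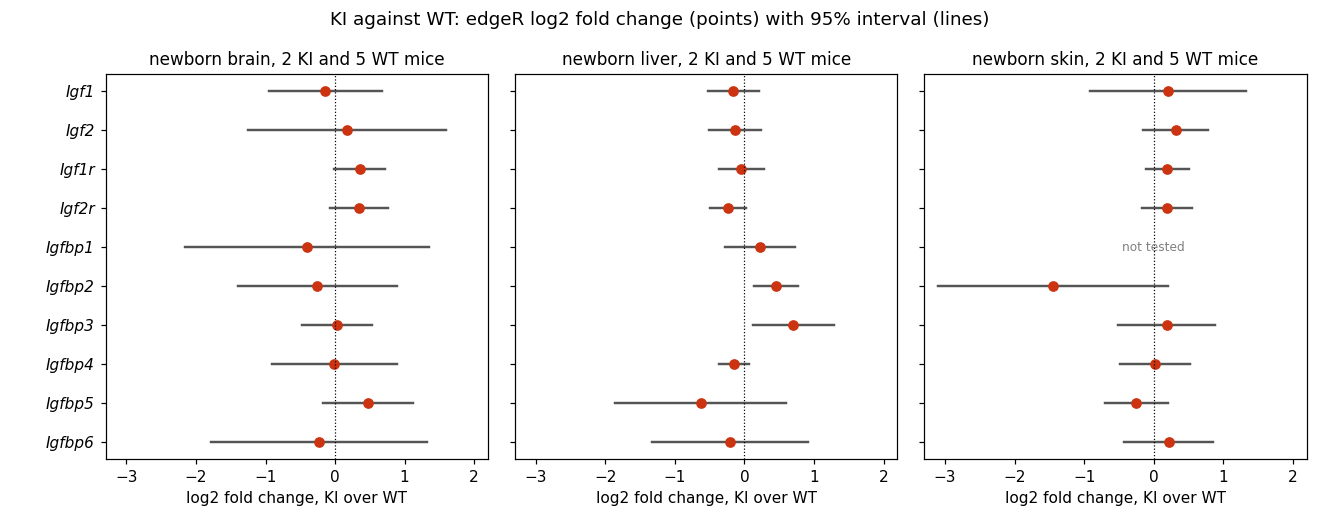
Log2 fold change of KI over WT (red points) with its 95% interval (grey lines) for the 10 members in newborn brain, liver and skin, from edgeR on 2 KI and 5 WT mice. Intervals of Igfbp2 and Igfbp3 in liver exclude 0 before adjustment for many genes, and intervals are widest for Igfbp1 and Igfbp6 in brain and Igfbp2 in skin.

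In liver, 3 binding proteins lay higher in KI on average (Igfbp1, Igfbp2 and Igfbp3) and the other 3 lay lower. For Igfbp2 the KI livers had 3054 and 3407 CPM and the WT livers 2092 to 2806, so that both KI libraries lay above all WT libraries. The log2 fold change was 0.45 (SE 0.142, 95% interval 0.13 to 0.77), with an edgeR adjusted p of 0.139. It was called by DESeq2 (0.45, adjusted p 0.0389) and by edgeR without WT 3 (0.54, adjusted p 0.0822, 3.75% of all genes called), and the adjusted p ranged from 0.0389 to 0.880 over 13 settings. For Igfbp3 the KI livers had 149 and 186 CPM against 69.6, 85.5, 99.96, 103 and 163 in WT. One WT liver, WT 4, lay between the KI libraries. The log2 fold change was 0.70 (SE 0.257, 95% interval 0.12 to 1.28, adjusted p 0.200), and without WT 4 it was 0.91 (adjusted p 0.0162).

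Igfbp1 followed the same library. The KI livers had 5329 and 6276 CPM, above 4 of the 5 WT livers (4058 to 4673 CPM) and below WT 4 (7684 CPM). With all mice the fold change was 1.17 (95% interval 0.82 to 1.66), log2 0.22 (SE 0.225), with an edgeR adjusted p of 0.651. Without WT 4 it was 0.42 on the log2 scale with an adjusted p of 0.0763, a call where 8.68% of all genes were called. Over 13 settings the adjusted p ran from 0.0763 to 0.942. Of those 13 settings Igfbp1 was called in 1, the fit without WT 4, and Igfbp3 in 3, the fit without WT 4, DESeq2 (log2 fold change 0.71, adjusted p 0.0830) and the replicate number as a block (0.74, adjusted p 0.0183). No KI library shares the number of WT 4, so under the block WT 4 does not enter the KI estimate. The block is therefore not separate from the fit without WT 4.

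Gene lists were also summed in these livers, where edgeR called 582 of all 14966 genes tested higher in KI and 251 lower (5.57% in all). The summed CPM of 10 fasting and FoxO target genes was 9339 in WT 4 and 999 to 3885 in the other WT livers, with 2844 and 3448 in the KI livers, inside the WT range. Of these 10 genes none was called higher in KI liver and 1 was called lower, Foxo3 (log2 fold change -0.63, SE 0.118, edgeR adjusted p 0.0290). The summed CPM of 15 acute-phase genes was 62864 and 68428 in KI livers and 45990 to 57443 in WT livers. Of 13 tested 4 were called higher, among them Il6 (2.89, SE 0.648, adjusted p 0.0525), Socs3 (2.09, SE 0.314, 0.0120) and Lrg1 (1.62, SE 0.133, 0.000759). Il6 was under 1 CPM in every WT liver, so its fold change rests on a low WT level. The 7 leukocyte markers summed to 6016 and 7307 CPM in KI livers and 3861 to 4836 in WT livers, with 6 of 7 called higher. Of 12 hypoxia genes edgeR called none in liver. Among them 2 had an unadjusted p under 0.05 (17.9% of all genes), and DESeq2 called 1, Ndrg1 (9.95% of all genes). The sums of the 12 in the KI livers were 1160.2 and 1654 CPM against 1473 to 1822 in WT. Over the 7 livers the order by Igfbp1 shared 3 places with that of the fasting and FoxO sum. It shared 0 places with the acute-phase order and 1 with the hypoxia order. The summed CPM of the erythroid markers was 3444 and 3327 in KI livers and 3933 to 5399 in WT livers. Of 6 such markers 4 were tested and 1 was called lower, Slc4a1 (-0.51, SE 0.138, adjusted p 0.0956), while the globin genes Hba-a1 and Hbb-b1 were at or near 0 in these tables. The part of fasting, of inflammation, of leukocytes and of erythroid cells in the binding protein levels was not tested.

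**Figure D5:**
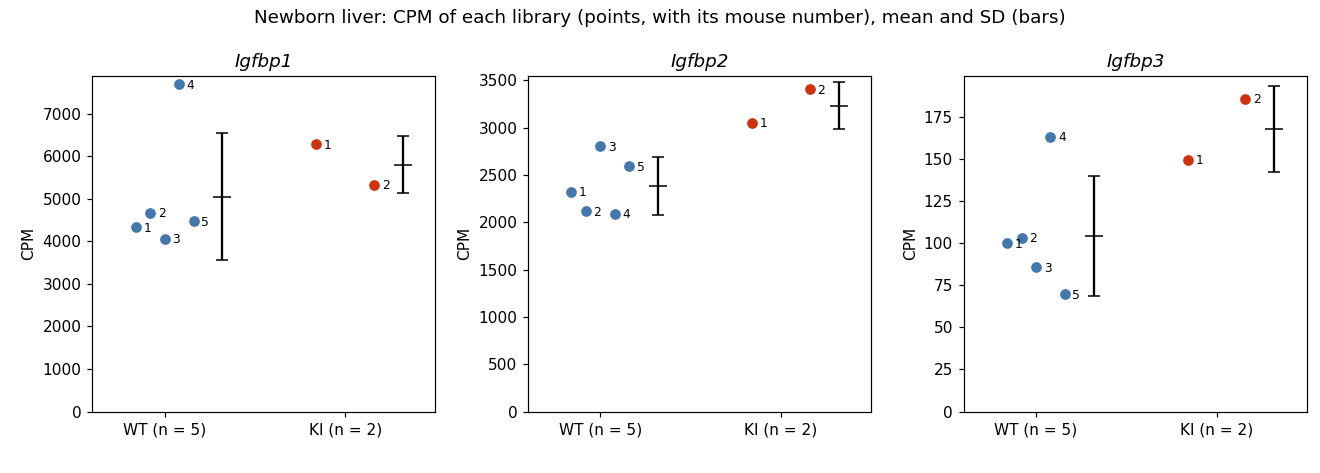
CPM of Igfbp1, Igfbp2 and Igfbp3 in each newborn liver (points with the mouse number, WT blue, KI red, axes from 0) with the mean and SD of each group (black bars). WT 4 has 7684 CPM of Igfbp1 and 163 of Igfbp3, far above the other WT livers, whereas both KI livers lie above all WT livers for Igfbp2 (3054 and 3407 CPM).

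The ligands of the liver did not pass. Igf2 was 8539 and 9255 CPM in KI against 7695 to 12314 in WT (log2 fold change -0.13, 95% interval -0.50 to 0.24), and Igf1 was 46.3 and 67.1 CPM against 56.8 to 75.4 (-0.16, 95% interval -0.53 to 0.21). Halving or doubling of either ligand transcript lies outside these intervals. Igf2r was 140.1 and 149 CPM in KI livers, below all WT livers (152 to 193), with a log2 fold change of -0.24 (95% interval -0.50 to 0.02, adjusted p 0.311). Igfbp4 was 874 and 931 CPM, also below all WT livers (949 to 1086), with -0.16 (95% interval -0.37 to 0.06). Across liver, 1 member had both KI libraries above all WT libraries and 2 had both below, against 12% and 12.9% of all genes. Igfbp5 (26.7 and 35.1 CPM against 15.5 to 97.2) and Igfbp6 overlapped. Their log2 fold changes were -0.63 (95% interval -1.86 to 0.60) and -0.21 (-1.33 to 0.91).

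In brain the KI libraries lay above all WT libraries for 3 members and below for none, against 17.9% and 11.1% of all genes. These were Igf1r, with 68.8 and 80.8 CPM against 44.2 to 63.5 (log2 fold change 0.35, 95% interval -0.01 to 0.71, edgeR adjusted p 0.480), Igf2r, with 41.5 and 42.9 against 23.5 to 36.0 (0.34, -0.08 to 0.76, adjusted p 0.567), and Igfbp5, with 366 and 349 against 123 to 287 (0.47, -0.18 to 1.12, adjusted p 0.610). For each of the 3 the lowest WT brain was WT 5. Without WT 5 the Igfbp5 difference was 0.33 with an adjusted p of 0.0455, a call of 1 member in 10 where 10.5% of all genes were called. Igf2 was 357 and 341 CPM in KI brains, inside the 6.46-fold range of the WT brains (0.17, 95% interval -1.25 to 1.59), and without WT 2 its difference was 0.81. Igfbp2 was 145 and 151 CPM, also inside the WT range, and its difference of -0.25 turned to 0.19 without WT 5. The differences of Igfbp4 (-0.01) and Igfbp6 (-0.23) also turned without WT 5, to 0.31 and 0.0882, and none of these values passed the test.

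In skin Igfbp2 alone had both KI libraries below all WT libraries, against 3.82% of all genes, and no member had both above (5.45%). The KI skins had 22.9 and 17.9 CPM and the WT skins 23.8 to 132. The log2 fold change was -1.45 with an interval of -3.10 to 0.20 (edgeR adjusted p 0.999). Without the highest WT skin, WT 2, it was -0.79, and the lowest value with another library left out was -1.64. Igf2 was 4902 and 5799 CPM in KI skins against 3526 to 5160 in WT (0.31, 95% interval -0.15 to 0.78). Igf1 was 186 and 327 CPM against 74.9 to 346 (0.20, -0.92 to 1.32). The KI skins differed from each other in marker sums. KI 1 and KI 2 had 11999.5 and 811 CPM of keratinocyte markers, against 1320 to 14660 in WT. For 5 adipocyte markers they had 2329 and 6074 CPM, against 753 to 5613 in WT. The part of cell composition in the skin levels was not tested. For Igfbp1, 2 and 4 counts were seen in the KI skins against 0 to 4 in WT, and no difference was detectable at this depth.

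Genes around the axis were also not called by the main test. In KI against WT, 0 of 15 signalling genes, 0 of 11 availability genes, 0 of 5 Igf2 RNA binding genes, 0 of 10 imprinted growth genes and 0 of 11 genes related to the binding proteins passed edgeR's test in any tissue. Of these 52 genes, 49, 47 and 49 were tested in brain, liver and skin, where 2, 6 and 3 had an unadjusted p under 0.05 (10.6%, 17.9% and 4.57% of all genes). DESeq2 called 1, 4 and 1 of them, against 3.7%, 9.95% and 0.662% of all genes (Furin in brain, Grb10, Htra1, Htra3 and Stc1 in liver and Irs2 in skin). Median log2 fold changes of the signalling list were 0.19 in brain, -0.10 in liver and 0.15 in skin, beside those of the 10 members of 0.01 in brain and -0.14 in liver. H19 had log2 fold changes of 0.03, -0.10 and 0.15 in brain, liver and skin, each with an interval that includes 0.

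KI effects were finally compared between tissues in a fit of all 21 libraries. No member passed edgeR's test for liver against brain (2.81% of all genes called), skin against brain (0%) or liver against skin (0.0997%). At an unadjusted p under 0.05 the counts were 2, 0 and 1 (15.1%, 7.41% and 5.54% of all genes), and with DESeq2 they were 1, 0 and 0 (7.69%, 0.31% and 0.659%). The smallest adjusted p was that of Igf2r, which lay higher in KI brain and lower in KI liver (difference of log2 fold changes -0.68, SE 0.233, 95% interval -1.17 to -0.19, edgeR adjusted p 0.162). It was the member called by DESeq2 (-0.67, adjusted p 0.0792). For Igfbp2 the difference of liver and skin was 1.86 (95% interval 0.23 to 3.49, adjusted p 0.808), and it was 1.19 without mouse WT 2 and at most 2.13 with another mouse left out.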

How the data were processed

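Total RNA was purified with the RNeasy kit and libraries were made with the TruSeq RNA v2 kit, which does not keep strand, and sequenced in pairs on a NovaSeq. The authors trimmed adapters, aligned reads to mm9 with TopHat2 and deposited raw HTSeq read counts per gene symbol, not normalized. The versions, the annotation and the counting mode are not given in the sources used here. The summary lines for unassigned reads were left out (80.5% to 87.6% of uniquely aligned reads were on genes). No other per-sample columns were present.

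Counts were filtered with filterByExpr, scaled by TMM and tested on whole tables in edgeR 4.0.16 (R 4.3.3) by its quasi-likelihood test, with Benjamini-Hochberg adjustment over all genes tested and calls at an adjusted p under 0.1. KI and WT were compared within tissue (2 and 5 mice), tissues within WT (15 libraries, 1 fit) and KI effects between tissues (21 libraries). DESeq2 1.42.0 (with which the study made its volcano plots; its GFOLD estimates were not used here), its size factors, scaling by totals, no filter, a fit of all libraries, a replicate block, an adjusted p of 0.05, other gene lengths and each library left out were alternatives. Printed CPM use 1 TMM scaling of all 21 libraries. RPKM divide these by the union of GENCODE vM1 exons (NCBIM37, the same assembly as mm9). Each fit was tested on simulated data in which 200 genes changed. Simulated 4-fold changes were recovered in 72%, 84% and 71% of genes for KI against WT in brain, liver and skin.

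The 10 members and the gene lists were chosen with earlier results of these data known. The text names all members, H19, Jak1, genes of a list among its 3 called genes with the largest log2 difference in a comparison, and the 3 genes most like Igf1, Igf2 and Igfbp1 (mean CPM of at least 1, pseudocount 0.5). A number within a genotype was read as the same mouse in all 3 tissues, since the study used 2 KI and 5 WT mice. The sample labels do not say so, and mouse numbers in the text rest on this reading. Same-numbered WT libraries of different tissues correlated across genes with r of -0.01 to 0.17 after group means were removed, which does not establish it. Promoter sequences are from RefSeq (GRCm38.p6).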

Additional observations from a re-analysis of the deposited data

Results flagged for a closer look

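Of 28 pairs of member and WT tissue with 5 libraries each, 4 held a library whose gap to its nearest neighbour was large against the range of its group (Dixon's test). Chance flags about 1 group in 20. Igf2 was highest in brain WT 2 at 719 CPM, with the next brain at 259. Igfbp5 was lowest in brain WT 5 at 123 CPM, with the next at 256. Igfbp1 was highest in liver WT 4 at 7684 CPM, with the next liver at 4673. Igfbp2 was highest in skin WT 2 at 132 CPM, with the next skin at 54.7. These are 4 libraries of 3 mice numbered WT 2, WT 4 and WT 5.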

How the results depend on the processing

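Of 1067 member values over all settings and comparisons, 996 kept their direction and their side of the threshold, 17 came to pass it, 7 no longer passed it and 47 turned direction. In none of the turned cases did either value pass the test. In KI against WT, the number of members called was 0 to 1 in brain and 0 to 2 in liver when each library was left out, 2 in liver with DESeq2 and 2 in each of brain and liver with the replicate number as a block. DESeq2 called 1 member for the KI effect in liver against brain, where edgeR called none. WT skin Igf2 was 899 RPKM with the length of the longest coding transcript. The cause of these changes was not tested.

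KI and WT mice share only the replicate numbers 1 and 2, and their libraries correlated across genes with r of 0.02 and -0.10 in brain, -0.03 and -0.09 in liver and 0.20 and 0.04 in skin, so the numbers do not show a pairing. Under the replicate block within a tissue, each WT library of another number is fitted by a term of its own. The KI effect there rests on the libraries numbered 1 and 2 alone. With that block Igf1r (log2 fold change 0.38, adjusted p 0.0565) and Igf2r (0.38, 0.0970) were called in brain, where 13.3% of all genes were called, and Igfbp3 (0.74, 0.0183) and Igfbp5 (-0.69, 0.0630) in liver (5.46%). Under the block the differences of Igfbp2 (0.0418), Igfbp4 (0.258) and Igfbp6 (0.0123) in brain, Igf2 in liver (0.13), Igfbp3 (-0.00185) and Igfbp4 (-0.13) in skin, and of the KI effect on Igf2 in skin against brain (-0.16) turned direction. Brain Igfbp4 also turned in the fit of all libraries (0.0759). For WT tissues the block with mouse changed 1 call, Igfbp5 in skin against brain.

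With each library left out, differences turned within these ranges: in brain Igf1 -0.31 to 0.0282, Igf2 -0.0283 to 0.81, Igfbp2 -0.39 to 0.19, Igfbp3 -0.0412 to 0.21, Igfbp4 -0.14 to 0.31 and Igfbp6 -0.78 to 0.19. In liver they were Igf1 -0.45 to 0.091, Igf1r -0.0975 to 0.042 and Igfbp6 -0.43 to 0.0732. In skin they were Igf1 -0.26 to 0.59, Igfbp3 -0.0125 to 0.43 and Igfbp4 -0.10 to 0.18. For KI effects in liver against brain they were Igf1 -0.58 to 0.32 and Igfbp6 -0.72 to 0.65, in skin against brain Igf1 -0.35 to 0.83, Igf2 -0.60 to 0.26, Igf1r -0.52 to 0.0545, Igfbp3 -0.0797 to 0.30, Igfbp4 -0.31 to 0.0686 and Igfbp6 -0.00245 to 0.84, and in liver against skin Igfbp1 -0.66 to 0.0471. Where 1 KI library was left out, the lone KI library was assumed to vary like the WT libraries. Depth limits Igfbp1 outside liver, where no library held more than 12 counts. The 2 KI mice limit all other comparisons of genotype.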
